A study of Mus musculus with 10 samples.

Results

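Cells of embryonic mouse cortex that carried a GPC4 plasmid (PB-GPC4) were compared with cells that carried the control plasmid (PB-Ctrl), in 4 of the 10 libraries of the study. The 4 libraries were taken by their labels, 2 of PB-GPC4 and 2 of PB-Ctrl, and all expressed genes were examined. Both groups came from wildtype ICR embryos, an outbred stock. Their lateral ventricles had received 3 µg/µl of PiggyBac transposase plasmid with 1.5 µg/µl of the PiggyBac construct, and the cortex had been electroporated in utero at E13.5. PiggyBac is a transposon that its transposase inserts into the genome, so dividing progenitors pass the construct to their progeny. Cortices were dissociated at E15.5 and GFP-positive cells were sorted for bulk RNA-seq. A CCN1 plasmid (PB-CCN1, 2 libraries) given in the same way at the same age was used for a further comparison, because it shares with PB-GPC4 an added transgene. The 4 remaining libraries were from C57BL/6 cortex electroporated with PB-Ctrl at E14.5 and collected at E17.5, 2 of wildtype embryos (PB-Ctrl-WT) and 2 of embryos with a conditional Ccn1 deletion by Nestin-Cre in Ccn1 fl/fl mice (PB-Ctrl-NCKO). They entered the estimate of spread and a few levels given below, but no comparison. The labels do not give the promoter of the constructs, the sex of the embryos, how many embryos went into a library, or whether the replicates were separate litters. The p-values therefore cover only the spread between these libraries, which may be technical. The cortical markers were present throughout: Neurod6, of cortical excitatory neurons, was at 1398 and 1374 CPM (counts scaled to library size with factors from the trimmed mean of M values, TMM) in PB-GPC4, 1251 and 1303 CPM in PB-CCN1, and 1226 and 1230 CPM in PB-Ctrl.

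Glypicans are heparan sulfate proteoglycans held at the cell surface by a lipid anchor. Their sugar chains bind growth factors and morphogens of the FGF, Wnt, BMP and Hedgehog families and present them to receptors, and GPC4 is known from neural precursor cells of the developing cortex. At this stage radial glia line the ventricle and divide, intermediate progenitors arise from them, and newborn neurons migrate outward. Proteins bound for the cell surface fold in the endoplasmic reticulum (ER), where chaperones such as BiP (the product of Hspa5) assist them. When unfolded protein accumulates there, the sensors ATF6, IRE1 and PERK raise chaperone transcription, and PERK also acts through the transcription factor ATF4. ATF4 is the common effector of the integrated stress response, which amino acid shortage and other stresses trigger too.

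Gpc4 itself was read first. Gpc4 (Entrez gene 14735, chromosome X, 52051007 to 52164923 on GRCm38.p6) stood at 5118 and 5004 CPM in PB-GPC4, 72.4 and 73.7 CPM in PB-CCN1, and 70.6 and 66.1 CPM in PB-Ctrl. Both PB-GPC4 libraries lay far above all others and the remaining 4 were close together. The level was 74.1-fold that of PB-Ctrl, a log2 fold change of 6.21 (standard error, SE, 0.05, edgeR adjusted p = 3.9e-34). Reads of the plasmid and of the endogenous gene are not separated in these counts. Ccn1, which encodes a secreted matricellular protein, was at 36.2 and 29.9 CPM in PB-GPC4 and 50.5 and 57.4 CPM in PB-Ctrl, so the groups did not overlap (log2 fold change -0.71, SE 0.12, adjusted p = 0.000488). That fall passed in each fit that left out 1 library. It did not pass with limma on log2(FPKM + 1) (adjusted p = 0.181), nor with DESeq2 (adjusted p = 0.551).

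Across the transcriptome the changes were many and small. Of 15371 genes tested, 978 (6.36%) passed at an adjusted p under 0.05, 491 higher (3.19%) and 487 lower (3.17%) in PB-GPC4. The median log2 fold change over all tested genes was 0.00. Without adjustment 3163 of the 15371 had a p under 0.05, and 2204 had one against PB-CCN1 (edgeR). Only 26 of the rises and 74 of the falls reached 2-fold. In 977 of the 978 called genes the libraries of PB-GPC4 and PB-Ctrl did not overlap. Such separation, where named below, therefore adds little to a call against PB-Ctrl. Total counts were 26061810 and 30825498 in PB-GPC4 and 25642567 and 27985945 in PB-Ctrl, and Pearson's r of log2 CPM across genes was 0.989 between the 2 libraries of each group. The count of 978 was 350 and 336 when PB-GPC4 replicate 1 or 2 was left out, 311 and 284 when it was PB-Ctrl replicate 1 or 2, and 1475 without PB-Ctrl-NCKO replicate 2, where a group left with 1 library is assumed to vary like the others.

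**Figure D1:**
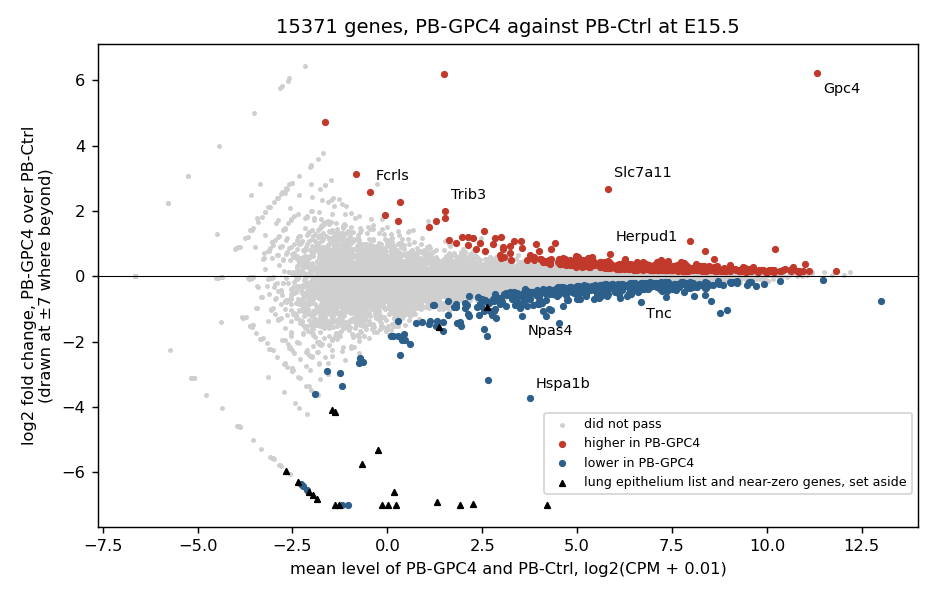
Log2 fold change of PB-GPC4 over PB-Ctrl against the mean level of the 4 libraries, log2(CPM + 0.01), for 15371 genes. Red and blue points are the genes called higher and lower at an adjusted p under 0.05 and black triangles the lung epithelium list and near-zero genes set aside. Gpc4 stands at 6.21, Slc7a11 at 2.68 and Hspa1b at -3.73, while most called genes lie within 1 of the line at 0.

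Some of the differences lay in transcripts of another tissue. Markers of lung epithelium were present in PB-Ctrl and PB-CCN1 and near 0 in PB-GPC4. Scgb1a1, the secretoglobin of airway club cells, had 0 and 0 counts in PB-GPC4, 892 and 951 in PB-CCN1, against 867 and 1124 in PB-Ctrl. Against a floor of 3 counts per library, that is at least 348-fold lower in PB-GPC4 than in PB-Ctrl. Sftpc, a surfactant protein of alveolar cells, had 0 and 4 counts in PB-GPC4, 234 and 224 in PB-CCN1, against 228 and 288 in PB-Ctrl. Cyp2f2, a club cell enzyme, had 0 and 0 counts in PB-GPC4, 171 and 152 in PB-CCN1, against 181 and 228 in PB-Ctrl. In these 3 genes PB-CCN1 and PB-Ctrl lay close together, and both lay far above PB-GPC4. The part of lung transcripts in the other results was not tested. The 4 E17.5 libraries also held 0 counts of Scgb1a1 and Cyp2f2. All 23 listed lung genes had 3 counts or more in a PB-Ctrl library. Of these, 22 were tested and 13 were lower in PB-GPC4, and 9 of the 23 had no count in either PB-GPC4 library. The lower bounds for the 9 ran from at least 1.99-fold (Cldn18) to the value of Scgb1a1.

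The lung list summed to 93.2 and 93.3 CPM in PB-GPC4, 186 and 186 in PB-CCN1, against 172 and 189 in PB-Ctrl. Most of what remained in PB-GPC4 came from Abca3, a lipid transporter, with 1881 and 2247 counts in PB-GPC4 and 2026 and 2295 in PB-Ctrl. Besides the listed genes, 8 others had at most 4 counts in each PB-GPC4 library and were lower against both plasmids: Aldh1a1, Ces1d, Cxcl15, Cyp4b1, Epn3, Fmo2, Inmt and Thbd. These 8 were found after their values were seen. With the lung list and the 8 genes set aside, 957 calls (6.24%) remained, with 491 rises and 466 falls. Among these falls 54 were of 2-fold or more. The median called rise was then 1.19-fold and the median called fall 0.752 of the PB-Ctrl level. Leaving the lung list, Gpc4 and Ccn1 out before scaling gave 989 calls.

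**Figure D2:**
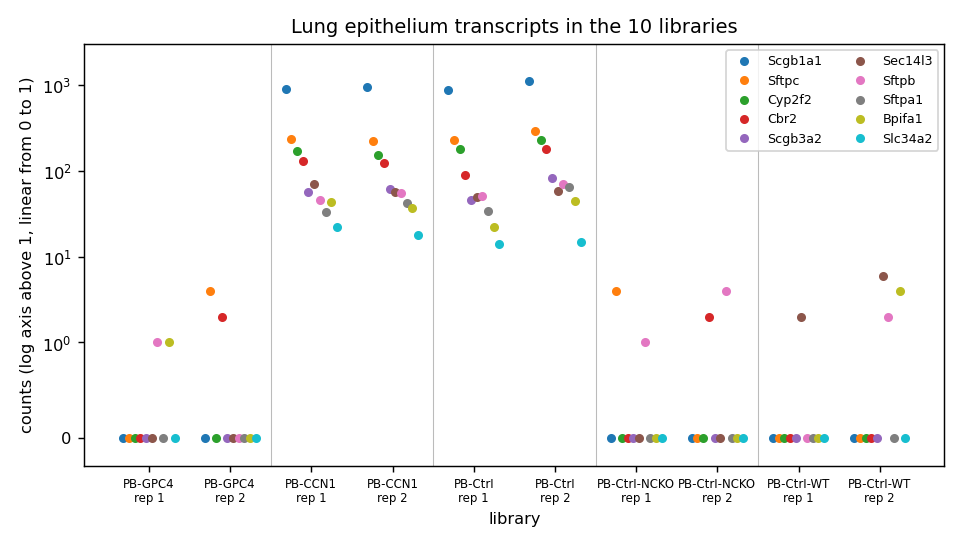
Counts of 10 lung epithelium transcripts in each of the 10 libraries, on a scale that is linear from 0 to 1 and logarithmic above. The 4 PB-CCN1 and PB-Ctrl libraries hold 14 to 1124 counts per gene, and the PB-GPC4 and E17.5 libraries hold 6 at most.

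PB-Ctrl also stood apart from all other libraries in a pair of heat shock genes. In counts scaled to each library's total alone (CPM without TMM), Hspa1b was at 2.07 and 1.65 in PB-GPC4, 1.24 and 1.74 in PB-CCN1, 1.99 to 3.79 at E17.5, and 26.8 and 23.9 in PB-Ctrl. Hspa1a was at 1.23 and 1.23 in PB-GPC4, 0.889 and 0.936 in PB-CCN1, 0.723 to 2.06 at E17.5, and 10.7 and 12.1 in PB-Ctrl. Both encode the inducible chaperone HSP70, and the 2 genes are near-identical copies whose reads counting may have split. Hspa1b and Hspa1a headed the falls outside the lung list, among genes that averaged at least 1 CPM over the 4 libraries (log2 fold changes -3.73 and -3.18). Neither passed against PB-CCN1 (0.31 and 0.43, adjusted p = 0.679 and 0.667). A reading against PB-CCN1 is therefore given beside the main groups below. PB-CCN1 held the lung transcripts as PB-Ctrl did, so that reading still carries this difference of PB-GPC4. Comparisons of PB-GPC4 and of PB-CCN1 with PB-Ctrl share the PB-Ctrl libraries, whereas the direct one does not use them.

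The direct comparison called 331 of 15371 genes (2.15%), 116 higher in PB-GPC4 (0.755%) and 215 lower (1.4%). The share of higher calls depended on the setting: it was 45.2% with the lung list, Gpc4 and Ccn1 left out, 45.6% with the length trend removed, 50.6% by DESeq2 (200 higher and 195 lower) and 54.3% without a filter on low counts (320 higher and 269 lower). Leaving out PB-GPC4 replicate 1 or 2 gave 121 and 89 calls, PB-CCN1 replicate 1 or 2 gave 77 and 150, PB-Ctrl replicate 1 gave 220, and PB-Ctrl-NCKO replicate 1 or 2 gave 596 and 593.

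Genes of ER chaperones and the unfolded protein response were higher in PB-GPC4. Of 20 such genes, 15 rose, 0 fell and 5 did not pass, with a median log2 fold change of 0.32 against 0.00 over all genes. Herpud1, a part of the machinery that removes misfolded protein from the ER, and Hspa5 are shown with their promoters, 250 bases up to the RefSeq start on GRCm38.p6, because such genes carry known elements of this response. Capitals mark the ER stress element, CCAAT followed after 9 bases by CCACG, in Hspa5 (chr2:34771840-34772089, plus strand, at -65 to -47). In Herpud1 (chr8:94386179-94386428, plus strand) they mark the second form of that element, ATTGG followed after 1 base by CCACG, at -52 to -42 and a TGATGNAA motif read on the other strand.

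Hspa5: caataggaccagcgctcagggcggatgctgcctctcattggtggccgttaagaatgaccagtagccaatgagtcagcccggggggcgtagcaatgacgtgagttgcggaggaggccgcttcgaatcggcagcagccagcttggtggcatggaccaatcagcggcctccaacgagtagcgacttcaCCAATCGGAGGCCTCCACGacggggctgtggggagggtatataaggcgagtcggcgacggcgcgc
Herpud1: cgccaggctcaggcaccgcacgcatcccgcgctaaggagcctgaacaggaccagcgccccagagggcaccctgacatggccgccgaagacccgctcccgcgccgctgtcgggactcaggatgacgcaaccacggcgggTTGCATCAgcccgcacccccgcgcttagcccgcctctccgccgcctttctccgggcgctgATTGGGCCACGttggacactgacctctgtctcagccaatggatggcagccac

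Among 27025 genes with a promoter window in that table, 35 (0.13%) held the ER stress element on either strand, and among the 17 list members with a window it was found in 8. These were Hspa5, Hsp90b1, Pdia6, Calr, Canx, Dnajc3 and Creld2, which all rose, and Syvn1, which did not pass. The second form occurred in 10 genes (0.037%), with Herpud1 the member among them. Motifs were matched by letters alone, and no binding was measured.

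Herpud1 was at 67.1 and 76.5 CPM in PB-GPC4, 56.7 and 57.7 CPM in PB-CCN1, and 41.1 and 48.1 CPM in PB-Ctrl. The 3 groups were ordered without overlap, with PB-GPC4 on top. The log2 fold change was 0.69 against PB-Ctrl (SE 0.08, adjusted p = 3.77e-06) and 0.33 against PB-CCN1 (SE 0.08, adjusted p = 0.0297). Hspa5 was at 581 and 585 CPM in PB-GPC4, 550 and 548 CPM in PB-CCN1, and 467 and 459 CPM in PB-Ctrl. Its libraries also kept to their groups (log2 fold change 0.33, SE 0.04, adjusted p = 1.71e-05), but PB-GPC4 did not differ from PB-CCN1 in the test (0.09, adjusted p = 0.384). In PB-CCN1, Hspa5 and Herpud1 were themselves above PB-Ctrl, by 0.25 and 0.36 (adjusted p = 0.00188 and 0.0275).

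Hyou1, a large ER chaperone, was at 183 and 195 CPM in PB-GPC4, 150 and 158 in PB-CCN1, against 143 and 135 in PB-Ctrl. Manf, a secreted factor released on ER stress, was at 160 and 156 CPM in PB-GPC4, 138 and 140 in PB-CCN1, against 116 and 117 in PB-Ctrl. Both were highest in PB-GPC4 in every library, with log2 fold changes against PB-Ctrl of 0.45 and 0.44 (adjusted p = 1.41e-05 and 5.26e-05). The co-chaperones Dnajc3, Sdf2l1 and Dnajb11 rose 1.48-fold, 1.46-fold and 1.35-fold. Disulfide isomerases rose less, with Pdia4, Pdia3 and Pdia6 at 1.28-fold, 1.23-fold and 1.21-fold. Hsp90b1 (an HSP90 of the ER), Canx, Calr and Creld2 rose by log2 fold changes of 0.33, 0.31, 0.20 and 0.43. Xbp1, the transcription factor whose message IRE1 splices, rose 1.22-fold. Atf6, the gene of another of the sensors, had a log2 fold change of 0.09 (adjusted p = 0.62). Edem1, Dnajb9 and Sel1l, of ER-associated degradation and its co-chaperones, did not pass at 0.24, 0.12 and 0.12, nor did the ubiquitin ligase gene Syvn1 at -0.06.

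Against PB-CCN1, 6 of the 20 rose (Herpud1, Hyou1, Dnajc3, Creld2, Pdia6 and Hsp90b1) and 0 fell, and the median was 0.19. The count of 15 was 12 and 11 with PB-GPC4 replicate 1 or 2 left out and 12 and 13 with PB-Ctrl replicate 1 or 2 left out. Called in all 10 fits that each left out 1 library were 10 of them, Hspa5, Hsp90b1, Pdia3, Pdia6, Canx, Dnajb11, Dnajc3, Manf, Hyou1 and Herpud1.

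**Figure D3:**
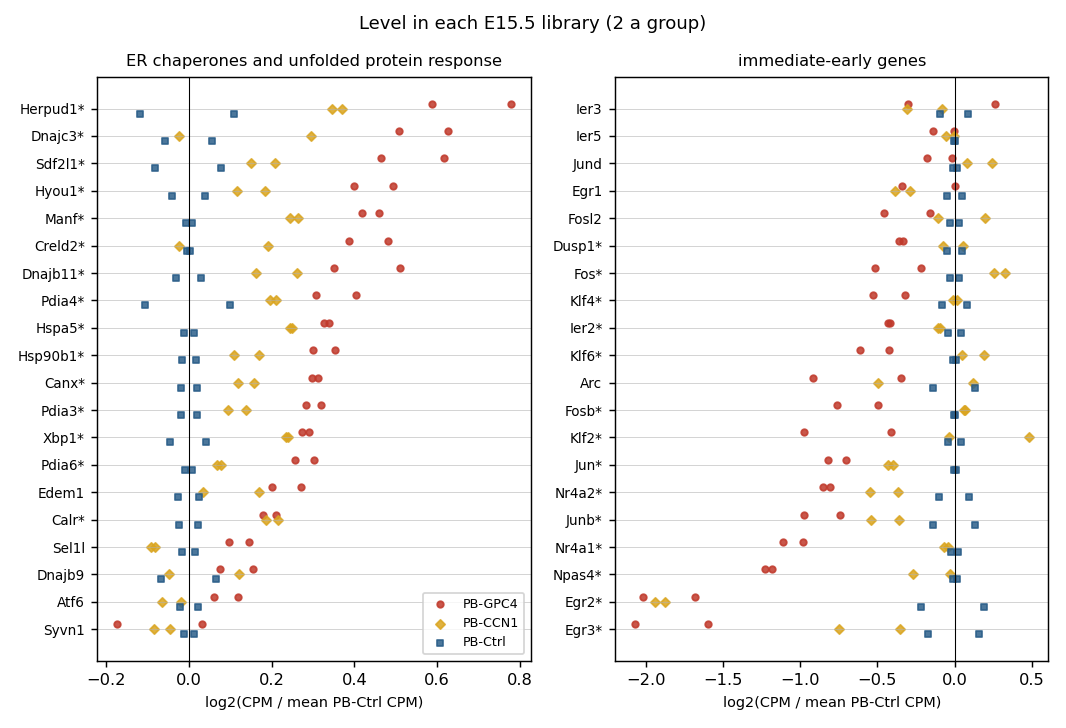
Level of each listed gene in each E15.5 library, as log2 of CPM over the mean of PB-Ctrl, for ER chaperones with the unfolded protein response and for immediate-early genes. Red circles are PB-GPC4, yellow diamonds PB-CCN1 and blue squares PB-Ctrl (2 libraries each), and an asterisk marks genes called between PB-GPC4 and PB-Ctrl. PB-GPC4 lies to the right of PB-Ctrl for the 15 called ER genes and to its left for the 14 called immediate-early genes.

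Targets of ATF4 and the integrated stress response were higher as well. Of 38 genes, 15 rose, 1 fell and 22 did not pass, with a median log2 fold change of 0.26. Slc7a11, the cystine importer, and Chac1, which degrades glutathione, are shown because both hold the TGATGNAA motif that ATF4 dimers are known to bind. Capitals mark it, read as TTGCATCA where it lies on the other strand. Slc7a11 is on the minus strand (chr3:50443614-50443863) with copies at -66 to -59 and -47 to -40, and Chac1 on the plus strand (chr2:119350992-119351241) with 1 copy at -193 to -186.

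Slc7a11: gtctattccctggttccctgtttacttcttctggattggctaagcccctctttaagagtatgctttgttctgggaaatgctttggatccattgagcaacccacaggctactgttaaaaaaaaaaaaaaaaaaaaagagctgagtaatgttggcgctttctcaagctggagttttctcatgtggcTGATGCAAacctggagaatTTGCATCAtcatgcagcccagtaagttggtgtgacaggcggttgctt
Chac1: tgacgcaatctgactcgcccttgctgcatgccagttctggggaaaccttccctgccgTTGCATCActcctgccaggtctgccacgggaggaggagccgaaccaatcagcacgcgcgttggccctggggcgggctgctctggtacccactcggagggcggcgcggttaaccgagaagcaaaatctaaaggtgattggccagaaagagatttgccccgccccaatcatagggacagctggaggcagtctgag

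The motif was found in 1056 of the 27025 genes (3.91%) and in 8 of the 31 list members with a window: Slc7a11, Chac1, Asns, Gars, Pycr1, Nupr1, Vldlr and Atf3. Of these 8 only Slc7a11, Chac1, Asns and Gars rose. Members without it rose too, among them Trib3 and Slc7a3.

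Slc7a11 was at 113 and 82.2 CPM in PB-GPC4, 67.3 and 62.1 CPM in PB-CCN1, and 14.3 and 16.1 CPM in PB-Ctrl. Both plasmids lay above PB-Ctrl in every library and PB-GPC4 above PB-CCN1. Slc7a11 headed the ranked rises after Gpc4, at 6.42-fold over PB-Ctrl (log2 fold change 2.68, SE 0.21, adjusted p = 1.44e-09). PB-CCN1 exceeded PB-Ctrl by 2.09 (adjusted p = 3.28e-07), and the difference between the 2 plasmids did not pass (0.59, SE 0.19, adjusted p = 0.102). Trib3, a pseudokinase induced by stress, was at 4.76 and 4.36 CPM in PB-GPC4, 2.69 and 2.33 CPM in PB-CCN1, and 0.772 and 1.49 CPM in PB-Ctrl. It was 4-fold higher than in PB-Ctrl (adjusted p = 0.00124), a call lost without PB-Ctrl replicate 1 (adjusted p = 0.0606). Chac1 was at 13 and 14.4 CPM in PB-GPC4, 10.8 and 8.53 CPM in PB-CCN1, and 5.59 and 7.27 CPM in PB-Ctrl, again in 3 levels that did not overlap. The fold over PB-Ctrl was 2.12 (adjusted p = 0.000421).

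Of amino acid transporters, Slc7a3 rose 1.9-fold, Slc7a5 1.29-fold, Slc7a1 1.26-fold and Slc3a2, the partner chain of SLC7A5 and SLC7A11, 1.24-fold. Asns (asparagine synthesis) rose 1.51-fold and Gpt2 (alanine synthesis) 1.35-fold. The tRNA synthetase genes Gars, Nars and Sars rose 1.2-fold, 1.2-fold and 1.15-fold. Atf5, Eif4ebp1 and Sesn2 rose 1.36-fold, 1.55-fold and 1.41-fold, whereas the message of Atf4 itself had a log2 fold change of -0.08 (adjusted p = 0.382). Ddit3, which encodes the stress factor CHOP, did not pass at 0.22 (adjusted p = 0.323), nor did Atf3 at -0.89 (adjusted p = 0.123). The member that fell was Slc1a5, a glutamine transporter, at 6.47 and 5.35 CPM in PB-GPC4, 5.83 and 5.6 in PB-CCN1, against 10.8 and 9.68 in PB-Ctrl.

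Against PB-CCN1 1 of the 38 rose (Gpt2, 0.30, adjusted p = 0.0319), 0 fell and the median was 0.10. Over all genes that comparison called 0.755% higher and 1.4% lower. The 15 rises were 11 and 9 with PB-GPC4 replicate 1 or 2 left out and 9 and 9 with PB-Ctrl replicate 1 or 2 left out. Slc7a11, Slc7a3, Slc7a5, Chac1, Asns and Gpt2 were called in all 10 such fits. Targets of the oxidative stress factor NRF2 overlap this list in Slc7a11. Of 17 tested, 3 rose (Slc7a11, the haem oxygenase gene Hmox1 at 2.32-fold and G6pdx at 1.22-fold) and 0 fell, with a median of 0.11. Hmox1 was lost with PB-GPC4 replicate 2 or either PB-Ctrl replicate left out and G6pdx with PB-Ctrl replicate 1 or either PB-GPC4 replicate left out, so that Slc7a11 was the 1 called in all 10 such fits. Of 18 p53 targets, 1 rose (Sesn2) and 0 fell, with a median of -0.03. Both lists stand beside 3.19% of all genes called higher and 3.17% called lower.

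Immediate-early genes, transcription factors and phosphatases switched on rapidly by growth factors, neuronal activity and other stimuli, were lower in PB-GPC4. Of 20, 14 fell, 0 rose and 6 did not pass, with a median log2 fold change of -0.56. The cells had been dissociated and sorted, and the part of that handling in these levels was not tested. Jun was at 286 and 264 CPM in PB-GPC4, 353 and 346 CPM in PB-CCN1, and 469 and 464 CPM in PB-Ctrl. The 3 groups did not overlap and PB-GPC4 was lowest, at 0.59 of the PB-Ctrl level (log2 fold change -0.76, SE 0.06, adjusted p = 3.28e-09). Npas4, an activity-dependent factor of neurons, was at 7.21 and 6.99 CPM in PB-GPC4, 16 and 13.6 CPM in PB-CCN1, and 16.2 and 16.5 CPM in PB-Ctrl. Here PB-GPC4 alone was low, with log2 fold changes of -1.21 against PB-Ctrl and -1.06 against PB-CCN1 (adjusted p = 1.06e-07 and 2e-06). Nr4a1, an orphan nuclear receptor, was at 11.7 and 10.7 CPM in PB-GPC4, 22.1 and 22.6 CPM in PB-CCN1, and 22.9 and 23.6 CPM in PB-Ctrl. It was again low in PB-GPC4 alone (-1.05 against PB-Ctrl, adjusted p = 9.91e-07, and adjusted p = 4.06e-06 against PB-CCN1). Fosb was at 140 and 117 CPM in PB-GPC4, 207 and 206 CPM in PB-CCN1, and 197 and 198 CPM in PB-Ctrl (-0.62 and -0.69).

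Fos was at 318 and 259 CPM in PB-GPC4, 463 and 441 CPM in PB-CCN1, and 363 and 377 CPM in PB-Ctrl. PB-CCN1 lay above PB-Ctrl here and PB-GPC4 below it, so the gap was wider against PB-CCN1 (-0.65, adjusted p = 4.96e-07) than against PB-Ctrl (-0.36, adjusted p = 0.00148). Egr2 stood at 0.468 and 0.59 CPM in PB-GPC4, 0.493 and 0.517 in PB-CCN1, against 2.16 and 1.63 in PB-Ctrl. Its fall in PB-GPC4 (-1.82, adjusted p = 0.0217) was lost with any 1 of the 4 PB-GPC4 and PB-Ctrl libraries left out (largest adjusted p = 0.185), and PB-CCN1 against PB-Ctrl did not pass (-1.90, adjusted p = 0.0616). Egr3, Junb, Nr4a2, Klf2, Klf6, Klf4, Ier2 and Dusp1 fell to between 0.282 (Egr3) and 0.786 (Dusp1) of the PB-Ctrl level. Egr1, a zinc-finger factor, was at 66.2 and 84 CPM in PB-GPC4 and 81.2 and 86.9 CPM in PB-Ctrl and did not pass (adjusted p = 0.313).

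Against PB-CCN1, 11 of the 20 fell and 0 rose, with a median of -0.39: Fos, Fosb, Jun, Jund, Ier2, Nr4a1, Npas4, Dusp1, Klf2, Klf4 and Klf6. The 14 falls were 13 and 9 with PB-GPC4 replicate 1 or 2 left out and 11 and 11 with PB-Ctrl replicate 1 or 2 left out. Those called in all 10 such fits were 8, Jun, Junb, Fosb, Nr4a1, Nr4a2, Npas4, Klf6 and Ier2. Dusp1 was the 1 member of 16 with a window to hold the cAMP response element TGACGTCA, which 478 of all genes (1.77%) held. The heat shock list, which reports on another stress response, had 2 of 14 genes lower (Hspa1a and Hspa1b, described above) and 2 higher, the constitutive chaperones Hsp90ab1 (1.12-fold) and Hspa8 (1.1-fold), with a median of -0.04.

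Radial glia genes were lower. Of 22, 8 fell, 0 rose and 14 did not pass, and the median log2 fold change was -0.21. In bulk samples fewer cells of a type and less RNA per cell cannot be told apart, here and for each list of cell type markers. Tnc, which encodes the matrix protein tenascin C, was at 69.9 and 80 CPM in PB-GPC4, 86.3 and 88.1 CPM in PB-CCN1, and 129 and 128 CPM in PB-Ctrl. All 4 libraries with a transgene lay below PB-Ctrl, and those of PB-GPC4 lay lowest. The log2 fold change was -0.78 against PB-Ctrl (SE 0.07, adjusted p = 6.44e-09), and that against PB-CCN1 did not pass (-0.22, adjusted p = 0.0989). Hopx, a marker of outer radial glia in primates, was at 4.25 and 3.38 CPM in PB-GPC4, 5.06 and 6.46 in PB-CCN1, against 7.64 and 8.15 in PB-Ctrl. Mt3, a metallothionein, was at 12.8 and 7.68 CPM in PB-GPC4, 16.6 and 16.1 in PB-CCN1, against 17.7 and 19.3 in PB-Ctrl, low in PB-GPC4 alone (-0.87 against PB-Ctrl and -0.69 against PB-CCN1, adjusted p = 0.000289 and 0.00897).

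The metabolic and glutamate-handling genes Aldoc and Slc1a3 were at 0.716 and 0.737 of the PB-Ctrl level, and the intermediate filament gene Nes at 0.765. Fabp7 and Hes1 were at 0.845 and 0.622. Of the transcription factors that define these cells, Pax6, Sox2 and Sox9 did not pass. Pax6 was at 112 and 104 CPM in PB-GPC4 and 121 and 124 CPM in PB-Ctrl (-0.18, adjusted p = 0.0982). Sox2 was at 87.5 and 90.1 CPM in PB-GPC4 and 95 and 103 CPM in PB-Ctrl (-0.16, adjusted p = 0.184), and Sox9 had -0.13. Against PB-CCN1, 2 of the 22 fell (Aldoc and Mt3), beside 1.4% of all genes, and the list's median was -0.09. The 8 falls were 7 and 6 with PB-GPC4 replicate 1 or 2 left out and 6 and 7 with PB-Ctrl replicate 1 or 2 left out, and Tnc, Hopx, Mt3, Aldoc, Slc1a3 and Nes were called in all 10 such fits.

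Notch receptors and effectors, which keep radial glia undifferentiated, moved the same way. Of 16 genes 8 fell and 0 rose, with a median of -0.36. Among receptors, Notch3 was at 19.2 and 20.4 CPM in PB-GPC4, 25.5 and 28.6 CPM in PB-CCN1, and 33.4 and 32.4 CPM in PB-Ctrl. Notch2 was at 54.2 and 54.2 CPM in PB-GPC4, 67.1 and 60.4 CPM in PB-CCN1, and 86.9 and 85 CPM in PB-Ctrl. In both genes PB-GPC4 was lowest and PB-CCN1 in between, at log2 fold changes of -0.73 and -0.66 against PB-Ctrl (adjusted p = 0.000269 and 3e-05). Notch1 fell less, to 0.833 of the PB-Ctrl level. Hes5, a repressor that Notch induces, was at 11.1 and 9.45 CPM in PB-GPC4, 17.7 and 14.9 CPM in PB-CCN1, and 15.4 and 17.8 CPM in PB-Ctrl. PB-GPC4 alone was low here, at -0.70 against PB-Ctrl and -0.67 against PB-CCN1 (adjusted p = 0.00706 and 0.0236). Hes1, Id4, the glycosyltransferase gene Lfng and the ligand gene Jag1 were at 0.622, 0.624, 0.643 and 0.717. The ligands Dll1 and Dll3, which newborn cells make, did not pass (-0.14 and -0.01).

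Against PB-CCN1, 2 of the 16 fell, Hes5 and Notch3, beside 1.4% of all genes, and the list's median was -0.15. The 8 falls were 7 and 3 with PB-GPC4 replicate 1 or 2 left out and 5 and 3 with PB-Ctrl replicate 1 or 2 left out. Notch2, Notch3 and Id4 were called in all 10 such fits, and Hes5 was lost without PB-GPC4 replicate 2 or PB-Ctrl replicate 2. TGGGAA, the core to which the Notch partner RBPJ is known to bind, was in the window of 4 of 12 members (Hes5, Id4, Lfng and Rbpj) and of 24.1% of all genes.

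Signals that glypicans are known to modulate were read next, separating receptors from targets. In the Hedgehog list 5 of 11 genes fell and 0 rose, with a median of -0.30. Gli1, which the pathway induces, was at 9.28 and 8.59 CPM in PB-GPC4, 7.57 and 7.89 CPM in PB-CCN1, and 17.3 and 16.3 CPM in PB-Ctrl. Both plasmids lay well below PB-Ctrl (-0.91 for PB-GPC4, SE 0.17, adjusted p = 0.00126, and -1.12 for PB-CCN1, adjusted p = 0.000425). Ptch1, the other usual target and the receptor, was at 18.1 and 20 CPM in PB-GPC4 and 23.2 and 20.1 CPM in PB-Ctrl, and did not pass (adjusted p = 0.445). The co-receptor genes Gas1, Cdon and Boc fell to 0.703, 0.803 and 0.832 of the PB-Ctrl level, and Gli3 to 0.811. Cdon was also lower than in PB-CCN1 (264 and 246 CPM in PB-GPC4 against 329 and 327 CPM, adjusted p = 0.000103), the 1 such gene of the 11. Calls were 3 and 4 with PB-GPC4 replicate 1 or 2 left out and 4 and 3 with PB-Ctrl replicate 1 or 2 left out.

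Of 17 FGF and ERK genes 4 fell and 0 rose, with a median of -0.03. They were the receptors Fgfr3, Fgfr2 and Fgfr1 (0.689, 0.78 and 0.882 of the PB-Ctrl level) and the feedback phosphatase Dusp4 (0.792). Fgfr3 was at 46.5 and 46 CPM in PB-GPC4, 64.8 and 55.6 in PB-CCN1, against 66.4 and 67.9 in PB-Ctrl. Of the 4, Fgfr3 was called in all 10 fits that each left out 1 library. Fgfr2 and Dusp4 were lost when PB-GPC4 replicate 2 or PB-Ctrl replicate 1 was left out. Fgfr1 was lost with any 1 library of PB-GPC4, PB-Ctrl or PB-CCN1 left out. Of 20 Wnt genes, with a median of -0.10, 3 rose and 3 fell, beside 3.19% and 3.17% of all genes. The ligand Wnt7b, the receptor Fzd3 and the inhibitor Nkd1 rose 1.23-fold, 1.15-fold and 1.24-fold, while the ligand Wnt7a and the feedback genes Axin2 and Znrf3 fell to 0.693, 0.752 and 0.676. Wnt7b was at 337 and 336 CPM in PB-GPC4, 351 and 332 in PB-CCN1, against 264 and 282 in PB-Ctrl, so that both plasmids lay above PB-Ctrl. It was the 1 of the 6 called in all 10 such fits.

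The next counts stand beside 3.19% of all genes called higher and 3.17% called lower. In the BMP and TGF-beta list 2 of 20 rose (Id2, 1.21-fold, and Ltbp1, 1.29-fold) and 1 fell, with a median of 0.02. The calls of Id2 and Ltbp1 were lost with PB-Ctrl replicate 2 or PB-GPC4 replicate 1 left out. Ltbp1 was also lost without PB-GPC4 replicate 2. The fall was Id3, a target of BMP, at 1.83 and 2.3 CPM in PB-GPC4, 4.21 and 3.15 in PB-CCN1, against 5.21 and 5.81 in PB-Ctrl (log2 fold change -1.41, adjusted p = 0.00109). Of 14 YAP and Hippo genes 1 fell, Ccn2, at 2.73 and 3.02 CPM in PB-GPC4, 2.6 and 1.47 in PB-CCN1, against 8.49 and 9.14 in PB-Ctrl. All 4 libraries of PB-GPC4 and PB-CCN1 lay below PB-Ctrl, those of PB-CCN1 lowest (-1.61 for PB-GPC4 against PB-Ctrl, adjusted p = 0.000239). The difference between PB-GPC4 and PB-CCN1 did not pass (0.50, adjusted p = 0.46). The list's median was -0.12. With Ccn1 it made the 2 falls among 5 CCN family genes, whose median was -1.08.

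Genes of newborn neurons were higher. Of 18, 9 rose, 0 fell and 9 did not pass, with a median log2 fold change of 0.17. Sema3c, a guidance molecule of migrating neurons, was at 165 and 184 CPM in PB-GPC4, 134 and 145 CPM in PB-CCN1, and 122 and 123 CPM in PB-Ctrl. Its 3 groups did not overlap (0.51 against PB-Ctrl, SE 0.06, adjusted p = 2.74e-06, and 0.32 against PB-CCN1, adjusted p = 0.00297). Unc5d, a netrin receptor of multipolar cells, was at 380 and 375 CPM in PB-GPC4, 327 and 334 CPM in PB-CCN1, and 311 and 310 CPM in PB-Ctrl. It was higher by 0.28 and 0.19 (adjusted p = 0.000518 and 0.0345). The cytoskeletal genes Map1b, Tubb3 and Dcx rose 1.2-fold, 1.14-fold and 1.14-fold, Gap43 1.19-fold, and the transcription factor genes Neurod1, Neurod6 and Nfib 1.2-fold, 1.13-fold and 1.13-fold. Dcx was at 1457 and 1459 CPM in PB-GPC4 and 1279 and 1276 CPM in PB-Ctrl, a narrow difference with little spread.

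Against PB-CCN1, 5 of the 18 were higher and 0 lower (Sema3c, Unc5d, Map1b, Nrp1 and Nfia), with a median of 0.12. The 9 rises were 4 and 3 with PB-GPC4 replicate 1 or 2 left out and 4 and 3 with PB-Ctrl replicate 1 or 2 left out. Called in all 10 such fits were Sema3c, Unc5d and Tubb3.

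**Figure D4:**
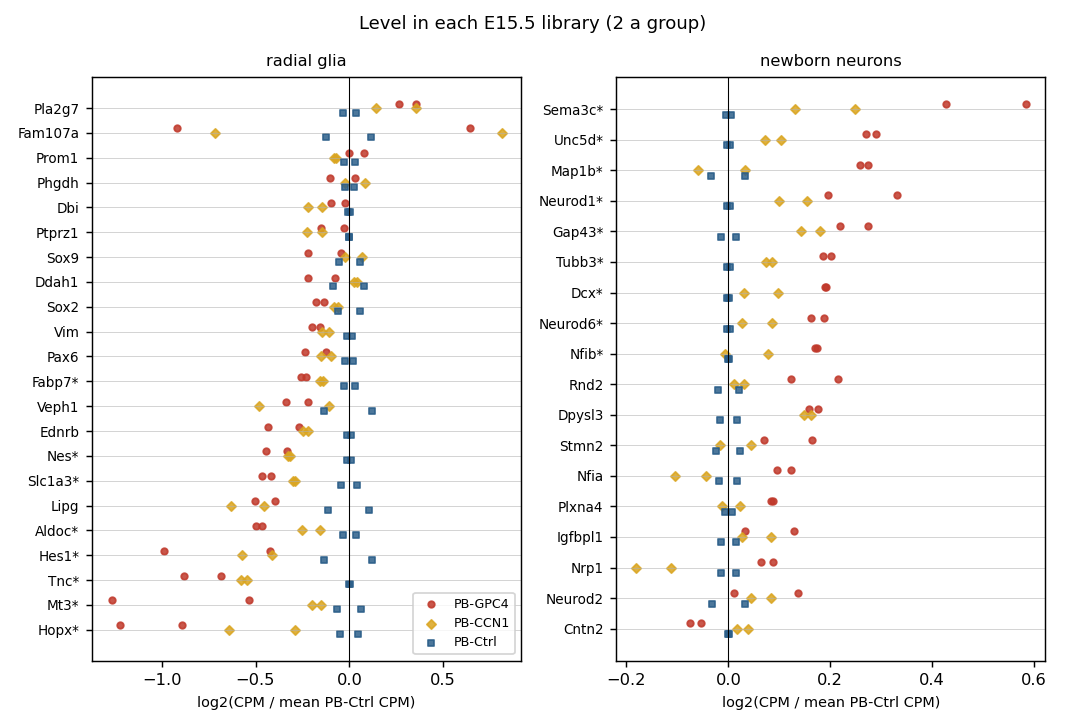
Level of each radial glia and newborn neuron gene in each E15.5 library, as log2 of CPM over the mean of PB-Ctrl. Red circles are PB-GPC4, yellow diamonds PB-CCN1 and blue squares PB-Ctrl (2 libraries each), and an asterisk marks genes called between PB-GPC4 and PB-Ctrl. PB-CCN1 lies between the other groups for many called genes, such as Tnc and Sema3c.

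Intermediate progenitor genes were mixed. Of 14, 5 rose, 0 fell and 9 did not pass, with a median of 0.06. Gadd45g, Sstr2, Mfap4, Coro1c and Elavl2 rose by 1.24-fold to 1.13-fold, while Eomes, the factor that defines these cells, was at 430 and 429 CPM in PB-GPC4 and 422 and 429 CPM in PB-Ctrl (adjusted p = 0.933). These counts were 1 and 0 with PB-GPC4 replicate 1 or 2 left out and 2 and 1 with PB-Ctrl replicate 1 or 2 left out. Among 15 upper-layer genes, with a median of 0.07, Lhx2 and Pou3f3 rose 1.13-fold and 1.1-fold and Inhba, an activin subunit, fell to 0.532 of the PB-Ctrl level. Each of these 3 calls was lost with any 1 of the 4 PB-GPC4 and PB-Ctrl libraries left out (largest adjusted p = 0.169, 0.228 and 0.263). Of 15 deep-layer genes 0 passed in edgeR or DESeq2, 4 had an unadjusted p under 0.05, and the median was -0.01. Tbr1 was at 330 and 325 CPM in PB-GPC4 and 310 and 325 CPM in PB-Ctrl, and Bcl11b at 263 and 231 against 213 and 220 (adjusted p = 0.663 and 0.0723).

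Beside 3.19% of all genes called higher and 3.17% lower, 5 of 31 axon guidance genes rose and 2 fell, with a median of 0.06. Besides Sema3c and Unc5d the rises were Sema6d (1.15-fold), Robo2 (1.16-fold) and Nrp2 (1.26-fold), and the falls Unc5c (0.587) and Flrt2 (0.787). Of 22 genes of synapses and excitability 2 rose and 4 fell, with a median of 0.01. The vesicular glutamate transporter gene Slc17a6 and the AMPA receptor gene Gria3 rose 1.19-fold and 1.35-fold. The NMDA receptor genes Grin1 and Grin2b and the channel genes Cacna1e and Scn2a fell to 0.686, 0.725, 0.699 and 0.759. Apart from Sema3c and Unc5d, each call named in these 2 lists was lost with at least 1 of the 4 PB-GPC4 and PB-Ctrl libraries left out.

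The machinery around GPC4 itself was read from 2 lists, beside the 3.19% of all genes called higher and the 3.17% called lower. Of 10 other glypicans, syndecans and heparan sulfate proteoglycans, 2 fell and 0 rose, with a median of -0.08. They were agrin (Agrn, 644 and 656 CPM in PB-GPC4, 811 and 780 CPM in PB-CCN1, and 768 and 799 CPM in PB-Ctrl, adjusted p = 0.000274) and perlecan (Hspg2, 0.708 of the PB-Ctrl level, adjusted p = 0.00242). Agrn was low in PB-GPC4 alone, also against PB-CCN1 (-0.29, adjusted p = 0.00017). Gpc1 was at 247 and 244 CPM in PB-GPC4 and 244 and 233 CPM in PB-Ctrl, and Gpc2 at 462 and 479 CPM in PB-GPC4 and 481 and 483 CPM in PB-Ctrl (adjusted p = 0.742 and 0.731). Of 24 enzymes that build and edit heparan sulfate 1 rose (the sulfotransferase gene Hs6st2, 1.13-fold) and 1 fell (Hs3st1, 0.822), with a median of -0.05. Neither call held in all 10 fits that left out 1 library.

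Matrix genes were lower in part. Among 13 genes of the chondroitin sulfate matrix Tnc and Bcan fell, and the median was -0.16. Bcan, the core protein of brevican, was at 14.2 and 12.1 CPM in PB-GPC4, 20.2 and 16.5 CPM in PB-CCN1, and 27.5 and 25.9 CPM in PB-Ctrl, in 3 groups without overlap (-1.02 against PB-Ctrl, SE 0.12, adjusted p = 4.67e-06, and -0.48 against PB-CCN1, adjusted p = 0.0467). Of 23 integrins, laminins and collagens 5 fell and 0 rose, with a median of -0.25: the laminin chains Lamb2, Lamc1, Lama5 and Lama1 and the integrin chain Itgb5, between 0.544 and 0.838 of the PB-Ctrl level. None of the 5 kept its call in all 10 such fits, and Lama5 was also lower than in PB-CCN1 (adjusted p = 0.0299).

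**Figure D5:**
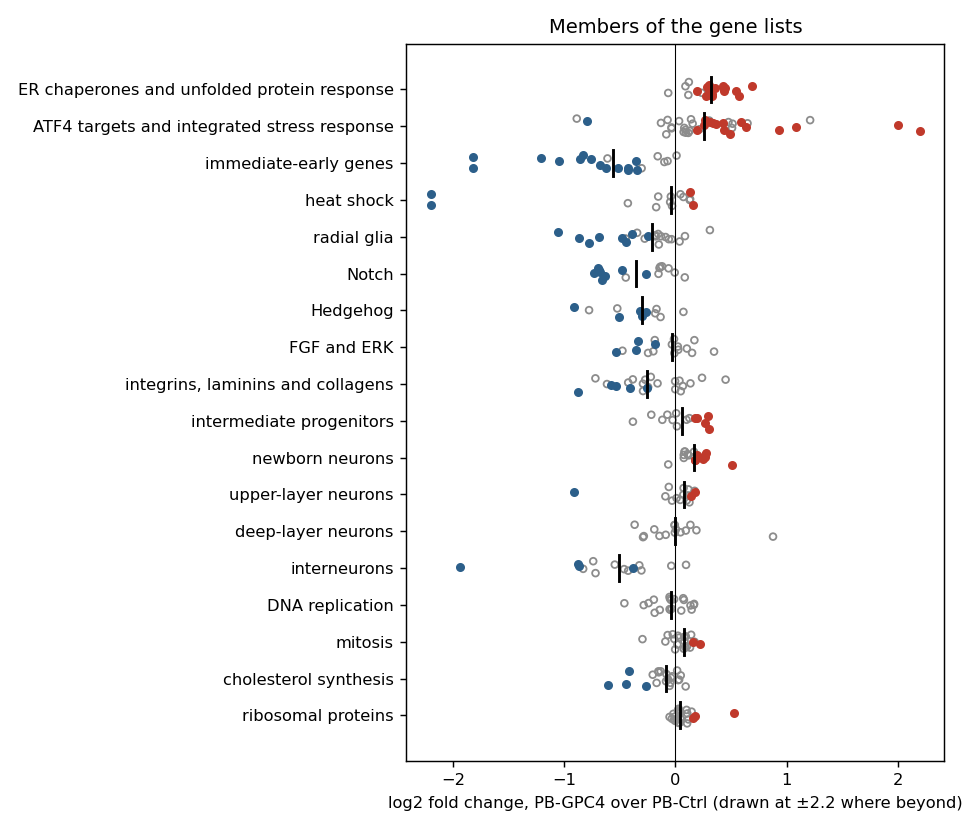
Log2 fold change of PB-GPC4 over PB-Ctrl for the tested members of 18 gene lists. Red and blue points are members called higher and lower, open circles those that did not pass, and black bars the list medians, which run from -0.56 (immediate-early genes) to 0.32 (ER chaperones).

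Genes of the cell cycle differed by list. Of all tested genes, 3.19% were called higher and 3.17% lower against PB-Ctrl, and 0.755% higher against PB-CCN1. An unadjusted p under 0.05 against PB-Ctrl was found for 3163 of the 15371. Of 20 DNA replication genes 0 passed with edgeR or DESeq2, 6 had an unadjusted p under 0.05, and the median was -0.04. The smallest p belonged to the licensing factors Cdc6 (-0.46, adjusted p = 0.0544) and Cdt1 (-0.29, adjusted p = 0.071). Of 20 mitosis genes 2 rose, Mki67 at 484 and 484 CPM in PB-GPC4, 390 and 395 in PB-CCN1, against 440 and 426 in PB-Ctrl, and the spindle motor gene Kif11, 1.17-fold. The median was 0.08. Against PB-CCN1, 3 of the 20 were higher, Mki67, Top2a and Kif11 (0.30, 0.37 and 0.32, adjusted p = 0.000268, 9.13e-05 and 0.00789). Among 16 G1 regulators the growth suppressor Rb1, the inhibitor Cdkn1b and Myc rose 1.26-fold, 1.19-fold and 1.23-fold, and the median was 0.00. Mki67 and Kif11 were lost without any 1 of the 4 libraries, and Rb1 was called in all 10 such fits.

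Other cell types that the sort could have held were read from their markers. Of 14 interneuron genes 4 fell, among them Sst, Lhx6 and Dlx2, and 0 rose, with a median of -0.50. The list summed to 54.2 and 52.5 CPM in PB-GPC4, 59.2 and 57.2 CPM in PB-CCN1, and 78.6 and 74.9 CPM in PB-Ctrl. Against PB-CCN1 0 of the 14 passed in edgeR, 1 had an unadjusted p under 0.05, and the median was -0.11. None of the 4 calls held in all 10 such fits. Of 6 Cajal-Retzius genes Reln and Trp73 rose, with a median of 0.26 and a summed level of 62.8 and 63.6 CPM in PB-GPC4, 50.3 and 43.6 in PB-CCN1, against 44.9 and 46.8 in PB-Ctrl. Reln, the secreted glycoprotein of these cells, was at 50.3 and 49.5 CPM in PB-GPC4, 38.1 and 32.1 in PB-CCN1, against 32 and 34.8 in PB-Ctrl (0.58 and 0.51, adjusted p = 0.00334 and 0.0228). The call of Reln was lost without PB-Ctrl replicate 1, and that of Trp73 with any 1 of the 4 PB-GPC4 and PB-Ctrl libraries left out.

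For the next lists the shares over all genes were 3.19% called higher and 3.17% lower against PB-Ctrl, and 0.755% higher against PB-CCN1. Of 10 microglia genes 1 rose, Fcrls, at 1.17 and 1.31 CPM in PB-GPC4, 0.359 and 0.172 in PB-CCN1, against 0.154 and 0.248 in PB-Ctrl. All 10 had positive log2 fold changes, with a median of 0.80, and the list summed to 20.6 and 21.9 CPM in PB-GPC4, against 10.5 to 16.5 CPM in the 4 libraries of PB-CCN1 and PB-Ctrl. Against PB-CCN1 the complement gene C1qc and the receptor gene Csf1r were higher (2.34 and 1.81, adjusted p = 0.0229 and 0.0423). Fcrls was lost without any 1 of the 4 libraries. Of 14 astrocyte lineage genes 2 fell, Fgfr3 and Id3 as above, and of 10 oligodendrocyte lineage genes 1 fell, with medians of 0.02 and -0.28. Of 9 endothelial, 11 mural and fibroblast, 4 erythroid and 2 choroid plexus genes tested, 0 passed with edgeR. DESeq2 called 0 too, but it gave no adjusted p for Col3a1 or Kcnj13 and could not call them. In the 4 lists 0, 0, 2 and 1 genes had an unadjusted p under 0.05 with edgeR. Their medians were -0.26, -0.08, -0.49 and -0.72, and with 1 library left out they ran from -1.03 to 0.03, -1.57 to 0.41, -0.70 to -0.24 and -1.15 to -0.48. The smallest p in these lists belonged to Egfl7 and Tie1, Tagln and Col3a1, Hba-a2 and Hba-a1, and Aqp1 and Kcnj13, at adjusted p = 0.137 to 0.981, and the summed levels of each list stayed at or under 18.2 CPM in every library. Against PB-CCN1 the erythroid Hba-a1 was higher (1.42, adjusted p = 0.00285). What the markers of these cell types contributed to the other groups was not tested.

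Sex-linked genes differed as well. Xist, expressed from the inactive X chromosome of females, was at 1731 and 1303 CPM in PB-GPC4, 1354 and 1407 CPM in PB-CCN1, and 847 and 859 CPM in PB-Ctrl (0.83 against PB-Ctrl, adjusted p = 1.51e-06). The Y-linked Kdm5d was at 22.4 and 29.3 CPM in PB-GPC4, 28.4 and 28.5 in PB-CCN1, against 45.4 and 37.9 in PB-Ctrl, and Eif2s3y fell as well. Kdm5d was lost with PB-GPC4 replicate 1 or PB-Ctrl replicate 1 left out, Eif2s3y was called in 3 of 10 such fits, and by DESeq2 or limma 0 sex-linked genes were lower. Ddx3y (-0.38) and Uty (-0.52) did not pass, and the median of the 5 sex-linked genes was -0.52. Between PB-GPC4 and PB-CCN1, 0 of the 5 passed with edgeR and 0 had an unadjusted p under 0.05. The part of embryo sex in the other results was not tested.

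Housekeeping and metabolic lists are given beside the share over all genes, 3.19% called higher and 3.17% called lower against PB-Ctrl. Of 21 cholesterol synthesis genes 4 fell, among them Idi1, Stard4 and Msmo1 (0.735 to 0.832 of the PB-Ctrl level), with a median of -0.08, and Stard4 and Msmo1 were also lower than in PB-CCN1 (adjusted p = 0.0329 and 0.0101). Of 25 ribosomal protein genes 3 rose, Rps2 (1.44-fold), Rpl7 and Rps6, with a median of 0.04, and Rps2 was raised in PB-CCN1 also (0.56 over PB-Ctrl, adjusted p = 2.2e-07). Of 22 respiratory chain genes 1 rose (Atp5a1, 1.12-fold), with a median of 0.09. Of 21 genes of glycolysis and hypoxia 0 passed with edgeR or DESeq2, 3 had an unadjusted p under 0.05, and the median was 0.01. Of 19 interferon response genes 2 fell, the class I antigen genes H2-K1 and H2-D1 (0.571 and 0.786), with a median of -0.35. H2-D1 was lost with any 1 of the 4 PB-GPC4 and PB-Ctrl libraries left out and H2-K1 with PB-GPC4 replicate 2 or PB-Ctrl replicate 1 left out, and the median ran from -0.40 to -0.11 with 1 library left out and was -0.10 with limma.

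The largest changes outside these lists were found by rank among genes averaging at least 1 CPM whose groups did not overlap. Ddr2, a collagen receptor kinase, was at 8.07 and 8.86 CPM in PB-GPC4, 3.81 and 3.88 CPM in PB-CCN1, and 3.47 and 3.01 CPM in PB-Ctrl. It was high in PB-GPC4 alone, 2.61-fold over PB-Ctrl, with adjusted p = 0.000223, and it passed against PB-CCN1 (1.14, adjusted p = 0.00456). Trim66, the clock repressor gene Ciart and Srp54a, of the signal recognition particle, rose 2.3-fold, 2.31-fold and 2.86-fold. None of the 3 passed against PB-CCN1. Trim66 kept its call in every fit that left out 1 library, whereas Ciart and Srp54a did not. The mitochondrially encoded COX3 and ATP6 had 2.26 and 6.59 CPM and 1.83 and 5.48 CPM in PB-GPC4 against 1.04 and 1.56 CPM and 1.58 and 0.744 CPM in PB-Ctrl. When PB-GPC4 replicate 2 was left out, the log2 fold changes were 0.79 and 0.67 and did not pass (adjusted p = 0.524 and 0.584). Both calls were also lost with PB-Ctrl replicate 2 left out, and that of COX3 with PB-Ctrl replicate 1 left out.

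Among falls, Epas1, a hypoxia-inducible factor, was at 0.39 and 0.394 CPM in PB-GPC4, 2.69 and 2.15 in PB-CCN1, against 2.62 and 1.56 in PB-Ctrl. It was low against both (-2.40 against PB-Ctrl and -2.61 against PB-CCN1, adjusted p = 0.00138 and 0.00119), and the call against PB-Ctrl was lost with PB-Ctrl replicate 1 left out (adjusted p = 0.054). Ifi35, an interferon-induced gene, Fscn2, an actin bundler, the small nucleolar RNA Snora33 and Rmrp, the RNA of RNase MRP, fell to 0.24, 0.258, 0.282 and 0.283 of the PB-Ctrl level. Rmrp was called in all 10 fits that each left out 1 library, while Ifi35 and Snora33 were lost with any 1 of the 4 PB-GPC4 and PB-Ctrl libraries left out and Fscn2 with PB-GPC4 replicate 2 or either PB-Ctrl replicate left out (largest adjusted p = 0.168, 0.254 and 0.251). Against PB-CCN1 the 5 largest falls were Ccn1, the CCN1 transgene of that group, Aldh1a1, Epas1, Iqcg and Mak, among genes averaging at least 1 CPM in these 4 libraries. Aldh1a1 is one of the 8 near-zero genes above and averaged less than 1 CPM over PB-GPC4 and PB-Ctrl, so it was not ranked there. Against PB-CCN1 the 5 largest rises were Spp1, C1qc, Padi4, Zfp33b and Lypd10. Padi4, Zfp33b and Lypd10 were low in PB-CCN1 rather than high in PB-GPC4: Lypd10 was at 15.2 and 15.2 CPM in PB-GPC4, 3.85 and 4.61 in PB-CCN1, against 21.2 and 18.7 in PB-Ctrl. Spp1, the osteopontin gene, was at 4.44 and 1.97 CPM in PB-GPC4, 0.493 and 0.69 in PB-CCN1, against 0.926 and 1.06 in PB-Ctrl. Mak, a kinase of cilia, was at 1.68 and 2.23 CPM in PB-GPC4, 5.42 and 5.99 in PB-CCN1, against 5.75 and 5.67 in PB-Ctrl, low in PB-GPC4 alone (-1.54 against each). Epas1 and Mak are not on the lung list, but like its called genes they were low in PB-GPC4 and similar in PB-CCN1 and PB-Ctrl. The part of lung transcripts in their falls was not tested.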

How the data were processed

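GFP-positive cortical cells were profiled by bulk mRNA-seq in 10 libraries, 2 in each of 5 groups, and the 4 libraries of PB-GPC4 and PB-Ctrl, both E15.5, were compared. Per the labels, RNA was taken up in TRIzol and the KAPA Hyper Prep Kit gave the libraries. The submitters' processing notes name bcl2fastq, Trimmomatic, HISAT2, featureCounts and mm10, with versions and strand setting not given in the sources used here. The authors deposited read counts for each Entrez gene without normalisation. The authors also deposited FPKM, from which whole-number gene lengths were implied exactly (largest deviation 0 bases).

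Symbols were matched for 93.1% of 27178 gene IDs, 25274 from RefSeq (GRCm38.p6) and 17 from GENCODE M21. Counts were tested with edgeR 4.0.16 in R 4.3.3 (quasi-likelihood F-test), with TMM scaling, filterByExpr and 5 group means over all 10 libraries (5 residual degrees of freedom, common dispersion 0.00385, prior degrees of freedom 22.2). P-values are two-sided and Benjamini-Hochberg adjusted over 15371 genes, with a threshold of 0.05. Floors of 3 counts (0.0973 to 0.133 CPM) cover counting error only. Replicates differed by more than counting error (chi-square per degree of freedom 3.39 to 4.67).

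The comparison and the 43 gene lists (cell types, signalling, matrix, cell cycle, stress and metabolism) were chosen with earlier results of these data known. Named genes are Gpc4 and Ccn1, the 10 largest called rises and falls (5 against PB-CCN1) at an average of at least 1 CPM without overlap of groups, the called members of a list by adjusted p, at most 4, or 2 members where none was called. Sex-linked, lung and predicted genes were left out of the ranking. Further members of a list were named after their values were seen, as were all genes outside the lists and ranks. Alternatives were other size factors, no filter, fewer libraries, a replicate block, removal of a gene length trend (lowess, span 0.3), DESeq2 1.42.0, limma 3.58.1 on log2(FPKM + 1), and each library left out. The fit was tested on simulated data. Some list members are not reported here by name. Setting the near-zero genes aside was added after the data were seen.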

Additional observations from a re-analysis of the deposited data

How the results depend on the processing

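Against PB-Ctrl the 978 calls became 2006 with the E15.5 libraries only, 2216 with the 4 libraries only, and 341 with limma on log2(FPKM + 1), of which 37.0% were higher against 50.2% in edgeR over all 10 libraries. Without a filter on low counts they were 1389, with 63.6% higher. Leaving out 1 library gave 284 to 1475. Against PB-CCN1 the 331 calls became 589 without the filter, 990 with the E15.5 libraries only, 835 with 4 libraries, 76 with limma, and 77 to 596 with 1 library left out, and 27.6% to 54.3% of them were higher over these settings. Counts under other size factors, upper-quartile scaling, removal of the length trend, DESeq2 and the removal of lung transcripts stayed within 1.5 times. The log2 fold change of Gpc4 was 6.13 to 6.27 throughout.

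The labels do not say whether libraries of the same replicate number share a litter or batch. Over all tested genes, the deviations of replicates correlated at -0.0163 between PB-GPC4 and PB-Ctrl and -0.00535 between PB-GPC4 and PB-CCN1. The value was 0.018 between PB-CCN1 and PB-Ctrl. A pairing that moves only some genes was not tested by these values. With a replicate block over the E15.5 libraries, calls were 1958 against PB-Ctrl and 947 against PB-CCN1.

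Of 146 single-gene results, limma kept the side of the threshold for 82 and lost 64. DESeq2 kept 119 and lost 7, and gave no adjusted p for the others. Changes of sign were those of Col3a1, at 1.41 and not called, which was -2.86 with PB-GPC4 replicate 2 left out (adjusted p = 0.191) and 2.34 with PB-GPC4 replicate 1 left out, where it passed (adjusted p = 0.0291), as it did without a filter on low counts (1.44, adjusted p = 0.00355), and of Kcnj13, which was -0.14 and 0.37 with PB-Ctrl replicate 1 or 2 left out and passed in neither. Over all alternatives, rises in the ER list numbered 11 to 17 and in the ATF4 list 9 to 17, and those of newborn neurons 2 to 15. Falls numbered 9 to 15 among immediate-early genes, 6 to 13 in radial glia and 3 to 8 in the Notch list. With 2 libraries a group the median SE of a log2 fold change was 0.11.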

Other observations

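Some genes outside the lists, chosen after their values were seen and so no evidence for any group, were higher in PB-GPC4. Nucb2, a calcium-binding protein of the secretory pathway, was at 20.4 and 19.5 CPM in PB-GPC4, 12.8 and 13.2 CPM in PB-CCN1, and 10 and 10.1 CPM in PB-Ctrl, 1.98-fold over PB-Ctrl (edgeR adjusted p = 1.41e-05). Derl3, of ER-associated degradation, Ero1b, an ER oxidase, and Sec24d, a coat protein of vesicles that leave the ER, rose 2.27-fold, 1.78-fold and 1.71-fold. The translocon subunits Ssr2 and Ssr3 rose 1.28-fold and 1.26-fold. Aldh1l2, a mitochondrial folate enzyme, rose 1.31-fold. Txnip, an inhibitor of thioredoxin, stood at 25.1 and 31.9 CPM in PB-GPC4, 22.3 and 20.7 in PB-CCN1, against 13.7 and 14.8 in PB-Ctrl, a 2-fold rise (adjusted p = 8.05e-06). Derl3 was lost without PB-Ctrl replicate 1 or PB-GPC4 replicate 2 (largest adjusted p = 0.147), and Ero1b without PB-Ctrl replicate 1 or PB-GPC4 replicate 1 (largest 0.0769).

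Others chosen in the same way were lower or concerned neurons. Adamts1, a metalloprotease, was at 13.3 and 11.8 CPM in PB-GPC4, 23.3 and 22.6 in PB-CCN1, against 32.8 and 34.5 in PB-Ctrl, in 3 separate groups (-1.42 against PB-Ctrl, adjusted p = 1.91e-09). Rhob, a small GTPase, was at 221 and 208 CPM in PB-GPC4, 280 and 278 in PB-CCN1, against 330 and 326 in PB-Ctrl. Sox3, a transcription factor of neural progenitors, fell to 0.608 of the PB-Ctrl level. Hexim1 and Mepce, which bind the 7SK RNA that restrains transcript elongation, fell to 0.683 and 0.654, and that RNA, Rn7sk, to 0.429. Rn7sk was at 12.6 and 9.32 CPM in PB-GPC4, 13.3 and 24.8 in PB-CCN1, against 22.1 and 28.8 in PB-Ctrl. The 2 PB-CCN1 libraries thus lay far apart. Rpph1, Lars2 and the mitochondrial ribosomal RNA mt-Rnr1 were at 0.383, 0.489 and 0.785 of the PB-Ctrl level, and the calls of Rpph1 and mt-Rnr1 were lost with PB-GPC4 replicate 2 or PB-Ctrl replicate 2 left out. Zbtb18, a repressor that neurons need, was at 2348 and 2322 CPM in PB-GPC4, 2011 and 2090 in PB-CCN1, against 1800 and 1784 in PB-Ctrl. Cdh8, a cadherin of neurons, rose 1.39-fold.

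Cwc22, a splicing factor gene in a segment whose copy number is known to vary among mice, was at 373 and 315 CPM in PB-GPC4, 164 and 177 in PB-CCN1, against 162 and 163 in PB-Ctrl. The 4 libraries of PB-CCN1 and PB-Ctrl lay close together and those of PB-GPC4 lay well above them, 2.11-fold over PB-Ctrl (adjusted p = 4.96e-11).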
